A study of Mus musculus with 2 samples.

Results

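The genes described here were grouped around the thiol-based and metal-binding antioxidant proteins of the cell, and were measured in colonic macrophages of mice with and without DSS in their water. They are called antioxidant genes for short. A name match does not make each one an antioxidant, and the group also holds an inhibitor (Txnip) and a pseudogene (Prdx6-ps2). They were taken by gene name from the array's annotation. The name rule covers the glutathione transferases (names beginning Gsta, Gstm, Gsto, Gstp, Gstk, Gstt or Mgst), the peroxiredoxins (Prdx), every symbol that starts with Txn, the numbered glutathione peroxidases (Gpx) and superoxide dismutases (Sod), and the single genes Gclc, Gclm, Gsr, Gss, Nqo1, Srxn1, Cat, Mt1, Mt2, Slc7a11 and Cbr2. Of 19938 genes that a probe set names alone, 66 met this rule, through 71 probe sets, and they are sorted below into 11 functional families. The rule used names and no measured value, but its genes were chosen with earlier results of these data known. The counts below therefore only describe this list. Prdx5, Prdx6, Prdx6b, Gsta1, Gsta2 and Gstp2 had no probe set naming that gene alone and are not among the 66.

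The series holds 2 arrays of macrophages sorted from the lamina propria of the mouse colon as CD45+, IAb+, CD11b+, F4/80+ and CD103-. The control array carries RNA of mice given plain drinking water for 5 days. The other array carries RNA of mice given 3% (wt/vol) dextran sulfate sodium (DSS), a polymer that injures the colon lining, in their water over the same 5 days. The labels used here do not state strain, age, genotype or the number of mice per array. Each condition has 1 array, so the values carry no replicate error, no test between conditions could be made, and a difference below compares these 2 arrays. In bulk RNA, fewer cells of a type and less RNA per cell cannot be told apart.

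Glutathione is a small thiol made from cysteine, glutamate and glycine. Cells import cystine, reduce it to cysteine, build glutathione from it, spend it on peroxides and reactive chemicals, and recycle the oxidised form with NADPH. Thioredoxin and the peroxiredoxins form a parallel system that also draws on NADPH, and metallothioneins bind zinc and copper through clustered cysteines. Macrophages make reactive oxygen and nitrogen species when activated, and these systems limit the damage to the cell itself.

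On the DSS array, 7 of the 66 genes were at least 2-fold higher than on the control array (10.6%), 6 were lower by at least 2-fold (9.09%), and the remaining 53 were closer. Among all 19938 named genes, 2.25% were higher by at least that much and 1.72% were lower. The higher genes were Slc7a11, Gsr, Mgst2, Mgst1, Sod2, Gsta4 and Gclm, and the lower ones were Cbr2, Gstm5, Mt2, Prdx4, Txnip and Mt1. The median difference of the 66 (log2 DSS signal minus log2 control signal) was -0.08, beside -0.06 over all named genes. This median turned positive under median centring of the arrays and with dim members left out, and stayed negative under loess centring. It therefore has no direction, and the members spread to both sides of it.

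Members were brighter than named genes at large. A mean signal at or above the mean of both array medians (5.66, log2) was reached by 72.7% of the members, against 53.4% of all named genes. Among the 10645 named genes that reached this mean, 3.96% were higher by at least 2-fold and 2.97% were lower. These shares exceed those over all named genes, but at the brightest end, from a mean of 11.75 upward, no named gene was 2-fold apart. Of the 66 members 48 reached it, and all 13 members at least 2-fold apart were among them. By the looser rule of standing at or above an array's own median (5.70 for control, 5.62 for DSS) on at least 1 array, 50 members passed and 16 did not. The 16 dim members had differences between -0.41 and 0.15, and their signals cannot be told from background. The spread of the differences gives a yardstick for size only. Its robust SD was 0.27 over all named genes and 0.38 over those reaching the mean, and the pooled SD between probe sets of the same gene was 0.27 over 974 genes, which covers probe noise and not variation between mice.

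**Figure D1:**
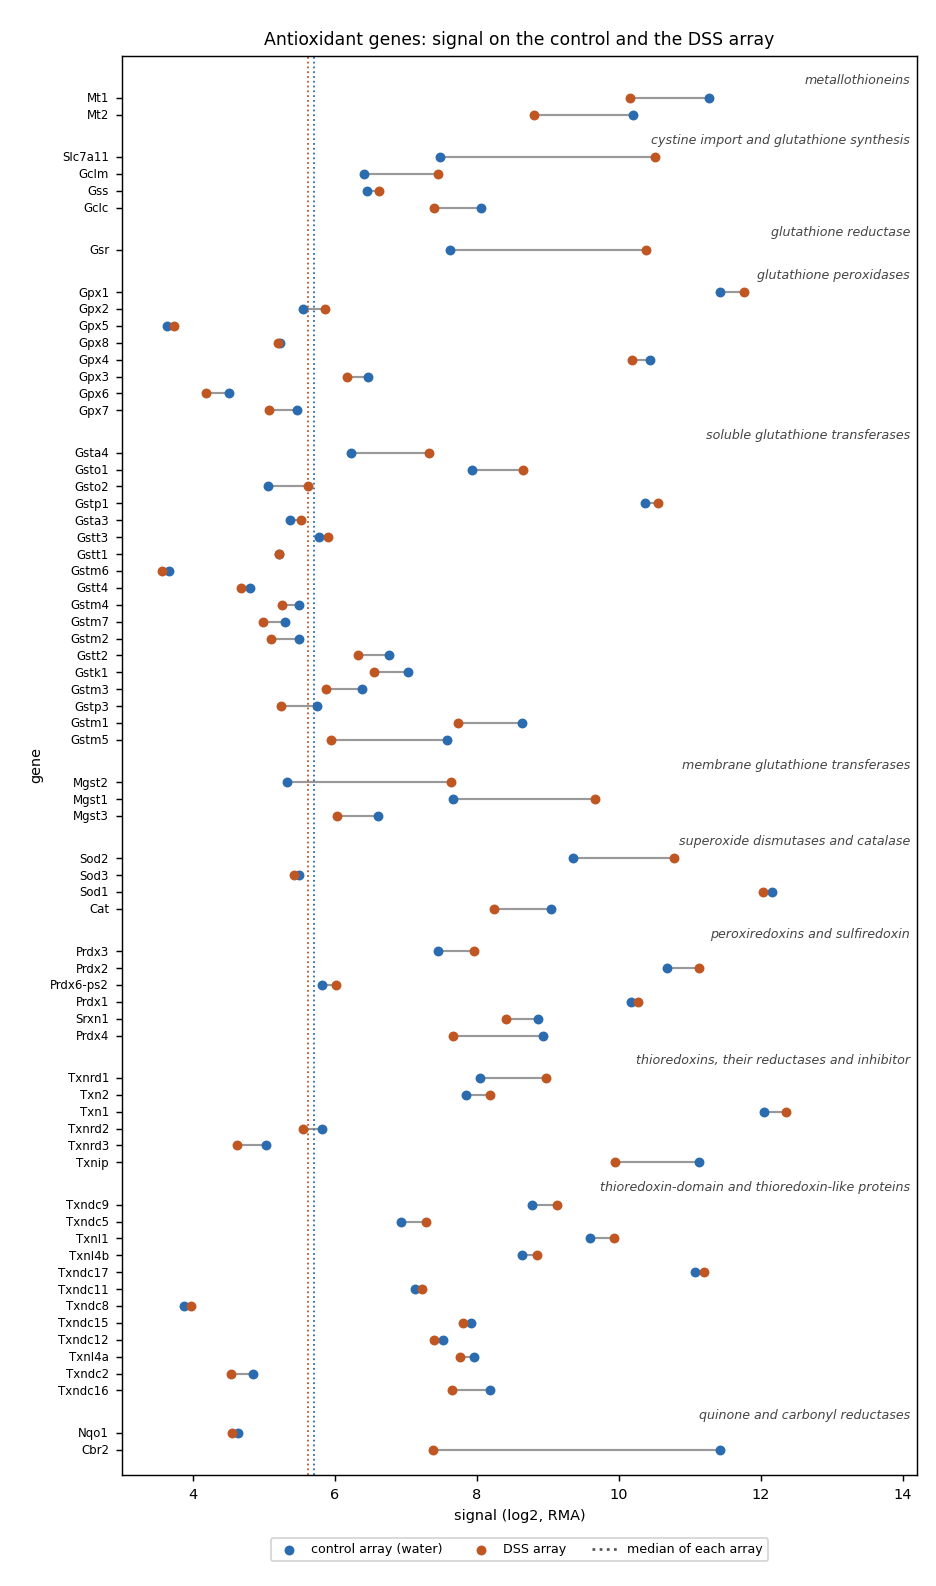
Log2 RMA signal (x axis) of each of the 66 antioxidant genes (y axis, grouped by family) on the control array (blue) and the DSS array (orange), 1 array each with no error bars; dotted lines mark each array's median (5.70 and 5.62). The longest connecting lines belong to Cbr2, which goes left, and to Slc7a11 and Gsr, which go right.

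Both metallothionein genes of the group were lower on the DSS array. Mt1 and Mt2 encode the small cysteine-rich proteins that hold zinc and copper, and their transcription is switched on by metals through the factor MTF1. Mt1 read 11.27 in control and 10.16 in DSS (log2 signal), which is 2.15-fold lower. Mt2 read 10.20 in control and 8.80 in DSS, 2.63-fold lower. The genes lie next to each other, with RefSeq start sites 6471 bases apart, and their differences of -1.10 and -1.40 were 0.29 apart. All 4 readings stood well above the array medians.

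The promoters of Mt1 and Mt2 are shown because these neighbours differed in the same direction, and because metal response elements are the best known control sites of these genes. The windows run from 250 bases before to 50 bases after the RefSeq start (build GRCm38.p6) at chr8:94178839-94179138 for Mt1 and chr8:94172368-94172667 for Mt2, both on the plus strand. They are printed in lower case, 5′ to 3′, with matches to the metal response element core in capitals, searched on both strands as TGCACNC or TGCGCNC.
Mt1: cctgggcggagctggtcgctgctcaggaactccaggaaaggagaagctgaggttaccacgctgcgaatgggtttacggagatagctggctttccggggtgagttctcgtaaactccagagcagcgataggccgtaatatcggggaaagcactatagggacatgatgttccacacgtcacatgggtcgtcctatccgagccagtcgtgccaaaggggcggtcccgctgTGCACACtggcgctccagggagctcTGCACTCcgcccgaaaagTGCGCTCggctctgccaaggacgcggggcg
Mt2: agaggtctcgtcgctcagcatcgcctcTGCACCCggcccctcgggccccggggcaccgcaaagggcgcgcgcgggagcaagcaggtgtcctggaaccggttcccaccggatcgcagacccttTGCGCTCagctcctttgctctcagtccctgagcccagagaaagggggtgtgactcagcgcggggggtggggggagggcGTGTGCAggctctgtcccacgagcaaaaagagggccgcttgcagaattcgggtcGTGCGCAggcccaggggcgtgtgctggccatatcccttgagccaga
Mt1 held 3 matches and Mt2 held 4, none overlapping another. At least 1 match was present in 25.7% of all 32851 promoter windows of the same length. A match is a description of letters and no evidence that a factor binds there. Of the 66 genes, 58 had a promoter in the RefSeq table, where a gene may have several. A match lay in 5 of the 6 lower genes (Mt1, Mt2, Gstm5, Prdx4 and Txnip), in 1 of 5 higher genes (Gclm) and in 12 of 47 genes between, beside 28.2% of all 27025 genes in the table. The groups were formed by the readings, so these shares are given as counts only.

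Cystine import showed the largest higher value in the group, while the enzymes of glutathione synthesis differed among themselves. Slc7a11 encodes the transport subunit of the cystine/glutamate exchanger xCT, which brings in the precursor that limits glutathione synthesis. It read 7.48 in control and 10.51 in DSS, 8.17-fold higher, which put it at rank 60 from the top among the 19938 named genes. Its partner chain Slc3a2, listed with glutathione turnover below, read 10.75 and 10.56. The first synthetic step is carried out by glutamate-cysteine ligase, which joins a catalytic subunit (Gclc) and a modifier subunit (Gclm) that lowers its feedback inhibition. Gclm read 6.42 in control and 7.45 in DSS, 2.05-fold higher, whereas Gclc read 8.06 and 7.40, 1.57-fold lower. The differences of these subunits, 1.04 and -0.65, were 1.69 apart on the log2 scale. Gss, the glutathione synthetase of the second step, read 6.45 and 6.62.

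The Slc7a11 promoter is shown because the gene had the largest higher difference of the group and its known control includes amino acid response elements, the sites of the stress factor ATF4. The window is chr3:50443564-50443863 on the minus strand (GRCm38.p6, RefSeq, same length), printed 5′ to 3′ with matches to TGATGCAA on either strand in capitals.
Slc7a11: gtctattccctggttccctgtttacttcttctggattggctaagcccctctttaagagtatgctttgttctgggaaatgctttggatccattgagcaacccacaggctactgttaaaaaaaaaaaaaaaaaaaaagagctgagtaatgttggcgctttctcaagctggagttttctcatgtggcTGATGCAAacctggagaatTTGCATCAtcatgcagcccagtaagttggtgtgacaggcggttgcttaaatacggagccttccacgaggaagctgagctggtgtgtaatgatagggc
It held 2 matches in opposite orientation, which start 66 and 47 bases before the RefSeq start and do not overlap. At least 1 match was present in 0.895% of all promoter windows and in no other of the 58 antioxidant genes with a window. Chac1, a glutathione-degrading enzyme that ATF4 is known to induce, was dim on both arrays at 5.58 and 5.48. A role of ATF4 in the Slc7a11 reading was not tested. The antioxidant response element core, searched as TGACNNNGC on both strands, matched 13 of the 58 genes, beside 12.4% of all windows and 3781 of the 27025 genes in the table. Its holders read in every direction, with Gclm and Mgst1 among the higher genes, Gstm5 and Mt2 among the lower ones and Srxn1, Prdx1 and Txnrd1 between. No match in Slc7a11 or Nqo1 says only that these letters are not in that window.

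Glutathione reductase stood far higher on the DSS array. Gsr encodes the NADPH-dependent enzyme that turns oxidised glutathione back into its reduced form. It read 7.62 in control and 10.38 in DSS, 6.76-fold higher and rank 68 from the top of all named genes. No other gene of the group apart from Slc7a11 had a larger difference in that direction.

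None of the 8 glutathione peroxidases, which reduce peroxides at the expense of glutathione, differed by 2-fold. Their differences ran from -0.40 to 0.33 with a median of -0.14. Gpx1, the abundant cytosolic enzyme, read 11.43 in control and 11.76 in DSS. Gpx4, which reduces lipid peroxides in membranes and protects from ferroptosis, read 10.43 and 10.19, and its second probe set gave the same direction (-0.24 beside -0.25). Gpx3, the secreted form, read 6.47 and 6.18, and Gpx2, the epithelial form, stood near the array medians at 5.55 and 5.86. Gpx5, Gpx6, Gpx7 and Gpx8 were below both medians. The peroxidase genes thus lay close to their control readings on the array on which the reductase gene read 6.76-fold higher.

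The 18 soluble glutathione transferases, which attach glutathione to electrophiles, differed by class. All 7 Gstm genes (mu class, a cluster of neighbouring genes) had negative differences, from -1.64 to -0.09 with a median of -0.39, on arrays where 11680 of all 19938 named genes were negative, and 4 of the 7 were below both array medians. Gstm5 read 7.58 in control and 5.94 in DSS, 3.12-fold lower, with a DSS signal only just above that array's median of 5.62. Gstm1 read 8.63 and 7.73, 1.87-fold lower and just short of 2-fold. Gstm3 had 2 probe sets that disagreed in sign, at -0.51 for the brighter and 0.19 for the dimmer, and mu class genes are similar in sequence, so a probe set may read several of them.

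The other transferase classes held genes of either direction. Gsta4, an alpha class enzyme that conjugates the lipid peroxidation product 4-hydroxynonenal, read 6.23 in control and 7.33 in DSS, 2.14-fold higher. The omega class genes Gsto1 and Gsto2 had differences of 0.71 and 0.56. Gsto1, which reduces protein-glutathione mixed disulfides and has been linked to NLRP3 inflammasome activation, read 7.93 and 8.65, while Gsto2 was dim on the control array at 5.07 and level with the median of the DSS array at 5.62. Gstp1, the pi class enzyme, read 10.36 and 10.55. Its relative Gstp3 read 5.75 and 5.24, a difference of -0.52 with a DSS signal below that array's median. Gstk1 (kappa class) and Gstt2 (theta class) had differences of -0.48 and -0.44, so these 3 genes lay in the direction of the mu class. Gstt1 read 5.22 on both arrays, to all the digits deposited, and was below both medians.

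Of the 3 membrane-bound transferases, 2 were among the highest differences of the group and the third differed in the opposite direction. Mgst1, an abundant enzyme of the endoplasmic reticulum and outer mitochondrial membrane that also reduces lipid peroxides, read 7.66 in control and 9.67 in DSS, 4.02-fold higher. Mgst2, which also has leukotriene C4 synthase activity, read 5.33 and 7.64, 4.94-fold higher from a control signal below the array's median, so that fold is not exact. Mgst3 read 6.61 and 6.03, a difference of -0.58. Ltc4s, the dedicated leukotriene C4 synthase of the same protein superfamily, read 7.45 in control and 5.86 in DSS, 3.00-fold lower, opposite in direction to Mgst2.

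**Figure D2:**
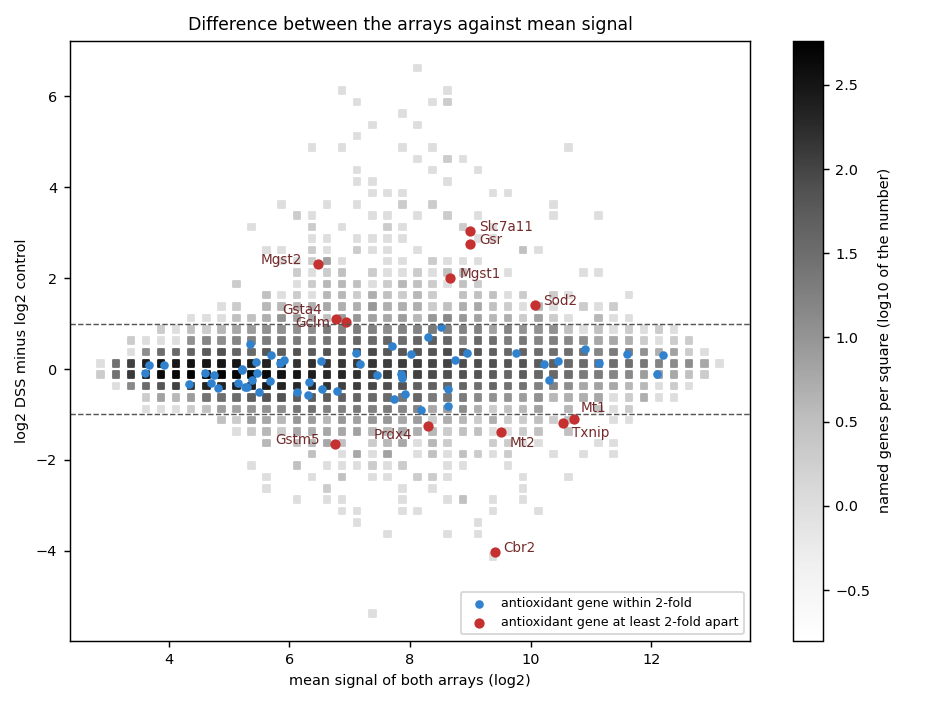
Difference between the arrays (log2 DSS minus log2 control, y axis) against the mean log2 signal of both arrays (x axis) for all 19938 named genes, binned in grey squares, with the 66 antioxidant genes in blue (within 2-fold) or red (at least 2-fold apart, named). Dashed lines mark 2-fold; Cbr2 at -4.03 and Slc7a11 at 3.03 are the outermost members.

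Of the 3 superoxide dismutases and catalase, which remove superoxide and hydrogen peroxide, Sod2 alone was at least 2-fold apart. Sod2, the manganese enzyme of the mitochondrial matrix and a classical NF-kB target, read 9.35 in control and 10.77 in DSS, 2.67-fold higher. Sod1, the cytosolic copper-zinc enzyme, read 12.15 and 12.03, and the gap between Sod2 and Sod1 was 1.54 on the log2 scale. Sod3, the extracellular form, was below both medians at 5.50 and 5.42. Cat, the peroxisomal catalase, read 9.04 and 8.23, 1.75-fold lower.

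Peroxiredoxins are peroxidases that thioredoxin keeps reduced. Prdx4, the member of the endoplasmic reticulum, where it uses peroxide to form disulfide bonds in secreted proteins, read 8.93 in control and 7.67 in DSS, 2.39-fold lower. Prdx3, the mitochondrial member, read 7.45 and 7.96, and Prdx2, a cytosolic member, 10.68 and 11.13. Prdx1 read 10.17 and 10.27, and its positive difference of 0.11 turned to -0.02 under loess centring of the arrays. Second, dimmer probe sets gave 0.21 for Prdx1 and 0.20 for Prdx2, the latter beside 0.45 for the brighter Prdx2 probe set. Srxn1, the sulfiredoxin that repairs overoxidised peroxiredoxins and a standard target of the oxidant-sensing factor NRF2, read 8.86 and 8.41, 1.36-fold lower. The pseudogene Prdx6-ps2 read 5.82 and 6.01, and its probe set may also read the parent gene.

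In the thioredoxin system, the cytosolic reductase read higher and the inhibitor lower on the DSS array. Txnrd1, the cytosolic NADPH-dependent thioredoxin reductase, read 8.04 in control and 8.97 in DSS, 1.91-fold higher. It was just short of 2-fold and passed it with median centring. Txnip, which binds and inhibits reduced thioredoxin and also limits glucose uptake, read 11.13 and 9.94, 2.27-fold lower. Thioredoxin itself (Txn1) read 12.04 and 12.35 and the mitochondrial form Txn2 7.85 and 8.19. The mitochondrial reductase Txnrd2 read 5.82 and 5.55, near the medians, and Txnrd3 was below both medians.

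The 12 genes of thioredoxin-domain and thioredoxin-like proteins, many of them folding helpers, differed by less than 2-fold throughout, from -0.54 to 0.35 with a median of 0.10. Txndc16 had the lowest value at 8.19 in control and 7.65 in DSS. Txndc9 had the highest, at 8.78 and 9.13, and a second probe set gave 0.56. Txndc5, a disulfide isomerase of the endoplasmic reticulum, read 6.94 and 7.28. Txndc17, a cytosolic disulfide reductase, read 11.06 and 11.20, and the sign of this difference turned under loess centring. Txndc2 and Txndc8 were below both medians.

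The quinone and carbonyl reductases held the member with the largest difference. Cbr2, a carbonyl reductase also known as a marker of tissue macrophages, read 11.42 in control and 7.39 in DSS, 16.4-fold lower and the second lowest difference of all named genes. Nqo1, the quinone reductase often used as a readout of NRF2 activity, was below both medians at 4.64 and 4.55.

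Members close to the 2-fold line show how much the counts depend on it. Just inside were Gclm at 1.04, Gsta4 at 1.10, Mt1 at -1.10 and Txnip at -1.18. Just outside were Txnrd1 at 0.93, Gsto1 at 0.71, Gstm1 at -0.90 and Cat at -0.81.

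Gpx1 to Gpx4 and the 3 thioredoxin reductases are selenoenzymes, which carry selenocysteine in the active site. These 7 members were grouped after their values were seen, and had a median of -0.25 and none at 2-fold. Selenoproteins outside the name rule are given with the other lists below. Of the 7, 4 were negative, close to the share over all named genes (11680 of 19938).

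**Figure D3:**
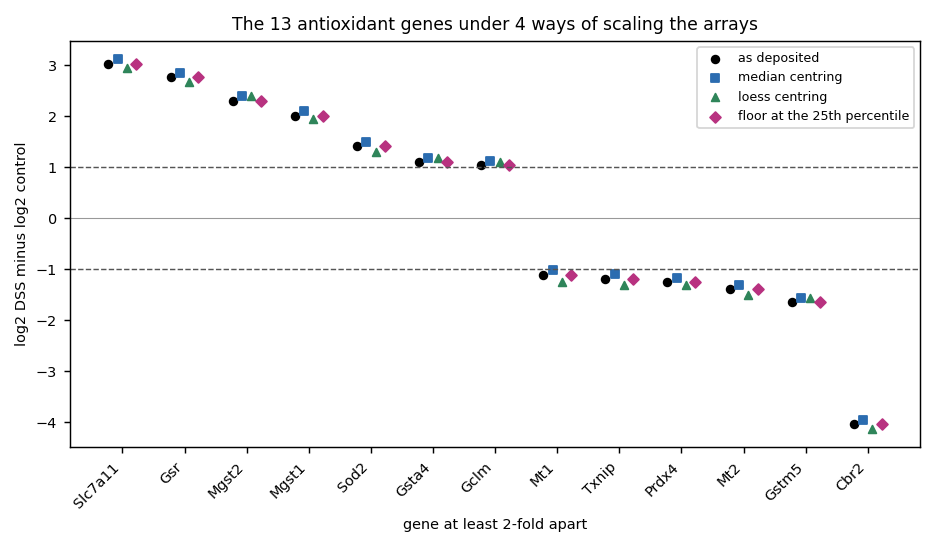
The log2 DSS minus log2 control difference (y axis) of the 13 antioxidant genes at least 2-fold apart (x axis) with values as deposited and under 3 other scalings, 1 symbol each; dashed lines mark 2-fold. Every gene kept its direction and stayed beyond 2-fold under both centrings, while the floor left these values as deposited.

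The pathway neighbours of these genes were described from lists that the name rule does not touch. In the list of glutathione turnover, glutaredoxins and related enzymes, 3 of 29 measured genes were past 2-fold on the higher side and 2 on the lower, around a median of 0.04. Ggct, which releases 5-oxoproline during glutathione breakdown, read 7.28 and 8.87, 3.01-fold higher, and the glutaredoxin Glrx, which uses glutathione to free protein thiols, read 8.41 and 9.90, 2.82-fold higher. Alox5ap, a further relative of the membrane transferases that presents arachidonic acid for leukotriene synthesis, was 2.06-fold higher. Ltc4s and the glutathione-dependent prostaglandin D synthase Hpgds were lower, the latter at 11.26 and 10.14. The higher count of this list depended on the processing. It was 2 under loess centring, where Alox5ap read 0.90 and fell within 2-fold, 4 under median centring, which added Esd, and 5 with the mean of all probe sets of a gene, which added Esd and Dpep2.

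NRF2 regulators, their known targets and the enzymes that supply NADPH had 1 of 47 measured genes past 2-fold on the higher side and 5 on the lower, around a median of -0.07. Nfe2l2, which encodes NRF2, read 11.62 and 11.61, and its inhibitor Keap1 read 6.36 and 6.07. Hmox1, the haem oxygenase, was 3.37-fold lower, the aldo-keto reductase Akr1b8 6.75-fold lower, the epoxide hydrolase Ephx1 4.84-fold lower and the mitochondrial isocitrate dehydrogenase Idh2 2.33-fold lower. The DSS signals of Akr1b8 (4.84) and Ephx1 (5.32) were below that array's median, so their folds are not exact. Msrb1, a selenoenzyme that repairs oxidised methionine, was 3.61-fold higher. The NADPH-supplying pentose phosphate gene Pgd and the sugar-recycling genes Taldo1 and Tkt, named after their values were seen, were 1.83-fold, 1.97-fold and 1.69-fold higher. Median centring put Taldo1 past 2-fold, at 1.06. The lower count was 4 under median centring, where Blvrb read -0.98 and fell within 2-fold. It was 6 under loess centring, which added Sesn1 at -1.06.

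Selenoprotein synthesis and other selenoproteins had 0 of 21 genes at 2-fold in either direction and a median of -0.06. The selenoenzyme gene Msrb1 was counted in the NRF2 list above and not among these 21, and it was 3.61-fold higher. Selenop, the secreted selenium carrier, lay furthest from 0, with signals of 12.04 and 11.28.

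**Figure D4:**
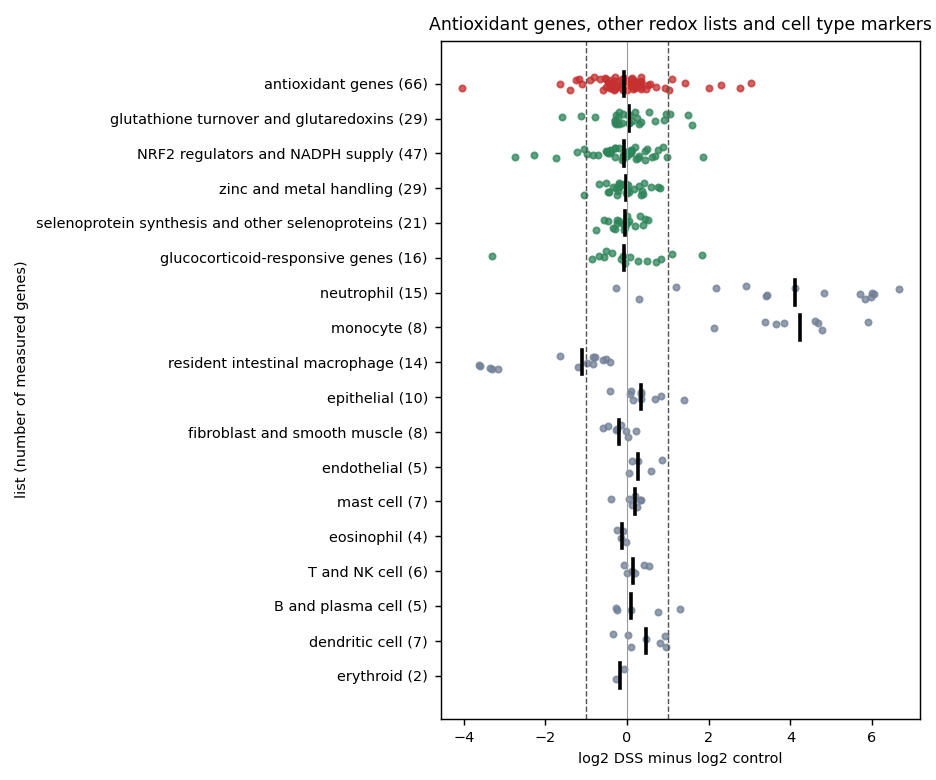
Difference between the arrays (log2 DSS minus log2 control, x axis) for each gene of the antioxidant group (red), of 5 other redox lists (green) and of 12 cell type marker lists (grey), with the list median as a black bar, the number of measured genes in brackets and dashed lines at 2-fold. The redox medians lie near 0, while the neutrophil and monocyte markers lie at 4.11 and 4.23 and the resident macrophage markers at -1.09.

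Markers of other cells differed between the arrays beside these results. Of 15 neutrophil markers, 13 passed 2-fold in the higher direction (median 4.11), and their signals ran from 3.77 to 9.45 in control and from 4.77 to 13.10 in DSS. Mmp8, Stfa3, Lcn2 and Ly6g had the largest differences, at 6.65, 6.05, 6.01 and 5.97, from control signals below the array's median, and Elane was the only one negative, at -0.28. All 8 measured monocyte markers were at least 2-fold higher (median 4.23), from 5.62 to 9.77 in control and from 9.75 to 12.23 in DSS, with Chil3, Hp, Ifitm6 and Trem1 furthest at 5.90, 4.76, 4.67 and 4.61. Of 14 resident intestinal macrophage markers, 7 passed 2-fold in the lower direction and all 14 were negative (median -1.09), from 8.84 to 12.72 in control and from 5.49 to 12.19 in DSS, with Folr2, Lyve1, Cd209f and Cd163 furthest at -3.62, -3.61, -3.36 and -3.31. Adgre1, which encodes the sort antigen F4/80, stayed bright at 11.65 and 10.82, and Itgae (CD103, excluded by the sort) was below both medians. All 7 mast cell and all 6 measured T and NK cell markers were below both medians. Of 8 fibroblast and smooth muscle markers, 6 stood at or above the median on at least 1 array, with Dcn at 9.66 and 9.08. All 5 endothelial markers were positive and 3 reached a median, with Pecam1 at 7.88 and 8.73. Of 4 measured eosinophil markers 3 reached a median, and of 2 erythroid markers 1 did. None of these 4 lists held a gene at 2-fold. Of 10 epithelial markers, 9 had positive differences (median 0.33), 6 stood at or above the median on at least 1 array, and signals ran from 4.36 to 8.004 in control and from 4.70 to 8.84 in DSS. Fabp2, a fatty acid binding protein of enterocytes, was 2.64-fold higher at 5.96 and 7.36, Tff3 lay furthest the other way at -0.41, and Epcam was below both medians. Of 5 B and plasma cell markers, the plasma cell gene Sdc1 alone passed 2-fold, at 6.15 and 7.45. Jchain, also of this list, was bright on both arrays at 10.79 and 10.52. None of 7 dendritic cell markers passed 2-fold, and 6 were positive (median 0.47). Under median centring Flt3 and Ccr7 passed it, at 1.02 and 1.03, and under loess centring Flt3 did. The part that these shifts in cell markers have in the higher and lower antioxidant genes was not tested, and with 1 array each a change within macrophages and a change in which cells were sorted cannot be told apart.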

How the data were processed

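Expression was deposited as log2 signals of 35556 probe sets in a single table. The submitters' processing notes name RMA (background correction, normalisation and summary of probes, on the log2 scale) with no version, while RMA settings and genome build have no mention in the sources used. Per the labels' protocols, labelled cRNA came from 100 ng of total RNA. There are no detection calls, and RMA compresses differences between dim probe sets.

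Values were used as deposited. Array medians rest on the 28939 probe sets with identifiers from the lowest annotated one upward. A gene took its single-symbol probe set with the highest mean signal (GEO platform annotation), and all 66 members kept their symbol when matched by Entrez identifier to RefSeq (GRCm38.p6). Counts use a fixed size of 2-fold with no signal filter. With 1 array per group there is no p-value, and the number of arrays limits the precision.

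Members, families and the 17 lists (245 entries, 12 without a probe set) were chosen with earlier results of these data known. Named are the members at least 2-fold apart, the main enzymes of each family and, of other lists, the genes at least 2-fold apart (at most 4 in each direction) and the gene furthest the other way. Genes outside this rule (such as Slc3a2, Chac1, Nfe2l2, Keap1, Adgre1, Itgae, Epcam, Dcn, Pecam1, Esd, Dpep2, Flt3, Ccr7, Blvrb and Sesn1) were chosen after their values were seen. The alternatives were median centring, loess centring (span 0.4), the mean of a gene's probe sets, 2 signal filters, a floor at the 25th percentile, other fold sizes and the list mean. The steps were tested on simulated data. Software was pandas 2.3.3, numpy 2.4.6, matplotlib 3.10.9 and statsmodels 0.14.6 under Python 3.11.15.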

Additional observations from a re-analysis of the deposited data

Results flagged for a closer look

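Probe sets that name several genes were not used above, and 6 of them include a gene of the name rule. All 6 were higher on the DSS array by about the probe-set SD (0.27) or more, which drew attention to them. The 4 probe sets shared by Gsta1, Gsta2, Gm10639 and Gm3776, alpha class transferases and close relatives, had log2 differences of 0.67, 0.62, 0.46 and 0.49, from control signals of 5.18 to 5.42 that lie below the control array's median. The 2 probe sets shared by Gstp1 and Gstp2 had differences of 0.27 and 0.28, beside 0.18 for the probe set of Gstp1 alone. These probe sets do not say which of the genes was read.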

How the results depend on the processing

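The same number of antioxidant genes was at least 2-fold higher (7) and lower (6) under loess centring, the mean of all probe sets of a gene, both signal filters and the floor at the 25th percentile, and median centring gave 8 and 6, the added gene being Txnrd1. Counting at 1.5-fold gave 9 higher and 9 lower antioxidant genes, beside 1149 and 1062 of all named genes. Counting at 3-fold gave 4 and 2, beside 183 and 118. The median of the antioxidant genes ran from -0.08 to 0.12 over the alternatives and changed sign, so it has no direction. None of the 13 genes at least 2-fold apart changed direction under median or loess centring. Each of the 13 has 1 probe set and signals above the floor, so the probe set mean and the floor could not change their values. Signal filters cannot add genes, and all 13 pass both, so these 4 settings say little about the 13. Of the other members, 2 changed sign under median centring and 4 under loess centring, all with differences of at most 0.14 in size. Median centring moved all named genes by 0.08 and loess centring by 0.07 (median). No paired analysis was possible because each group has 1 array. Signals below the array medians cannot be told from background, which limits the 16 dim members and the fold of Mgst2.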

Other observations

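Metal handling genes other than Mt1 and Mt2 lay mostly near 0. Of 29 measured genes, 0 were at least 2-fold higher in DSS, 1 was lower and the median was -0.03. The lower gene was Slc11a2, the iron and manganese importer DMT1, at 8.10 in control and 7.04 in DSS, and it lay within 2-fold under median centring. Mtf1, the factor that switches metallothionein genes on by zinc, read 7.86 and 7.83, and the zinc exporter Slc30a1, another of its known targets, read 8.47 and 8.52. Whether metals or MTF1 had a part in the lower Mt1 and Mt2 readings was not tested. Mt3 read 6.86 and 6.34, and Mt4 was below both medians. The copper importer Slc31a1 lay furthest the other way with a difference of 0.80.

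Metallothionein genes are also known to respond to glucocorticoids. Of 16 genes in a list of glucocorticoid-responsive genes, 2 were at least 2-fold higher in DSS, 1 was lower and the median was -0.07. Tgm2, a transglutaminase, and the kinase gene Sgk1 were 3.56-fold and 2.14-fold higher. The lower one was Cd163, a haemoglobin scavenger receptor that is also among the resident macrophage markers, 9.95-fold lower. Fkbp5, Tsc22d3 and Per1, common readouts of the glucocorticoid receptor chosen after their values were seen, had differences of 0.49, -0.53 and 0.08. Over the 16 genes, 9 differences were negative and 7 positive, beside 11680 of 19938 negative among all named genes. A part of glucocorticoids in the metallothionein readings was not tested. The receptor gene Nr3c1 read 9.08 in control and 8.40 in DSS.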
